A study of Mus musculus with 30 samples.

Results

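C2C12 myoblasts, a clonal line of mouse muscle progenitor cells, were compared on the second day of differentiation with and without a low dose of hexavalent chromium. The comparison sets the 3 libraries treated with potassium chromate at 2 µM on day 2 against the 3 control libraries (0 µM) of the same day, 6 of the 30 RNA-seq libraries in all. Differentiation was started by moving the cells from growth medium with fetal bovine serum to a medium low in horse serum, which all of these cultures received, and chromate was dosed in that medium. The series holds groups of 3 at 0, 2 and 5 µM on days 1, 2 and 4 and an untreated group on day 0. The labels call the replicates biological replicates and say nothing more of how the cultures were separated, so the p-values measure only the spread between these samples. The line is 1 clone in culture, without the nerve, vessels and other cell types of muscle.

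Chromate is an oxyanion that resembles sulfate and enters cells through sulfate transporters. Inside the cell, ascorbate and thiols such as glutathione reduce it, which produces reactive intermediates and chromium bound to DNA and protein. Myoblasts leave the cell cycle when serum is lowered. The transcription factors of the MyoD family and their MEF2 partners then switch on genes for fusion, for the sarcomere and for calcium release.

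Levels are the deposited values, called scaled CPM here because a value divided by the constant of its library gives whole reads, and columns sum to 892246 to 1079920. The 6 libraries held 22.1 to 25.5 M reads, and all 30 libraries 18.5 to 26.9 M. Skeletal muscle markers fit the labelled cell type, with Des at 2433 to 2776 scaled CPM in control and 2490 to 2871 at 2 µM, and Myod1 at 160.9 or more in each library. The 10 muscle markers summed to 12653 to 13224 in control and 10473 to 11264 at 2 µM. Marker sums of adipocytes, lung epithelium and leukocytes were at most 0.711 scaled CPM in the 6 libraries, and that of endothelial cells at most 1.78. The neuron and glia list summed to 49.2 to 57.5 in control and 67.3 to 78.8 at 2 µM, nearly all of it Tubb3 (0.42, adjusted p = 0.095), while Snap25, Rbfox3 and Gfap were at 0 in all 6. A pair of day 1 libraries, replicate 1 of 2 µM and replicate 3 of 5 µM, carried 82 and 185 foreign transcripts. These were at 5 scaled CPM or more there and below 1 in every other library. In each of the other 28 libraries this count was 0. The pair was left out of the fit.

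At 2 µM on day 2 few genes were called in the main fit, and most called changes were under 2-fold. Of the lists described below, 9 of 34 fast and shared sarcomere genes, 6 of 11 embryonic and slow ones and 4 of 30 mitosis genes were called lower, and 5 of 28 NRF2 targets were called higher. Of 12820 genes tested, 130 were called (1.01%), which means a Benjamini-Hochberg adjusted p below 0.05 in limma, with 58 higher (0.452%) and 72 lower (0.562%). Log2 changes are differences of mean log2(CPM + 1), which understates the change of genes at low levels, and adjusted p-values are limma's unless another tool is named. The called rises had a median of 0.44 (0.27 to 1.19) and the called falls a median of −0.60 (−0.26 to −1.34). Only 10 reached 2-fold, 2 of them higher and 8 lower. Before adjustment, 1225 of the genes tested had a limma p below 0.05, so a low count of calls does not mean that other genes were unchanged.

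In 129 of the 130 called genes the 3 treated libraries did not overlap the 3 controls, against 21.3% of all genes tested. The exception was Pkia, an inhibitor of protein kinase A, named after its values were seen, at 424, 462 and 364 in control and 364, 325 and 279 at 2 µM, which did not pass without 1 library (control 1 or 2, 2 µM 2 or 3, adjusted p up to 0.28). Called genes were mainly abundant ones. Among genes at 100 scaled CPM or more in the higher group 3.73% were called (80 of 2147), against 0.7% at 10 to 100 (47 of 6711) and 0.105% at 1 to 10 (3 of 2869). The median half-width of the 95% interval of a log2 change was 0.19, 0.32 and 0.65 in these bands, so that a change of the median called size could not be resolved in the lowest one.

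The count of 130 depends on which libraries set the spread. The fit takes 1 spread per gene from 28 libraries in 10 groups. With only the 6 libraries of the comparison, 623 genes were called (236 higher, 387 lower), and with the 9 libraries of day 2, 382 were called. With the 2 foreign-transcript libraries put back, 66 were called. Leaving out control replicates 1, 2 or 3 gave 58, 53 or 73 genes, and leaving out 2 µM replicates 1, 2 or 3 gave 87, 57 or 56. Of the 130 calls, 37 held without each of these 6 libraries, and 30 held in all 20 other settings tried (15 higher, 15 lower).

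**Figure D1:**
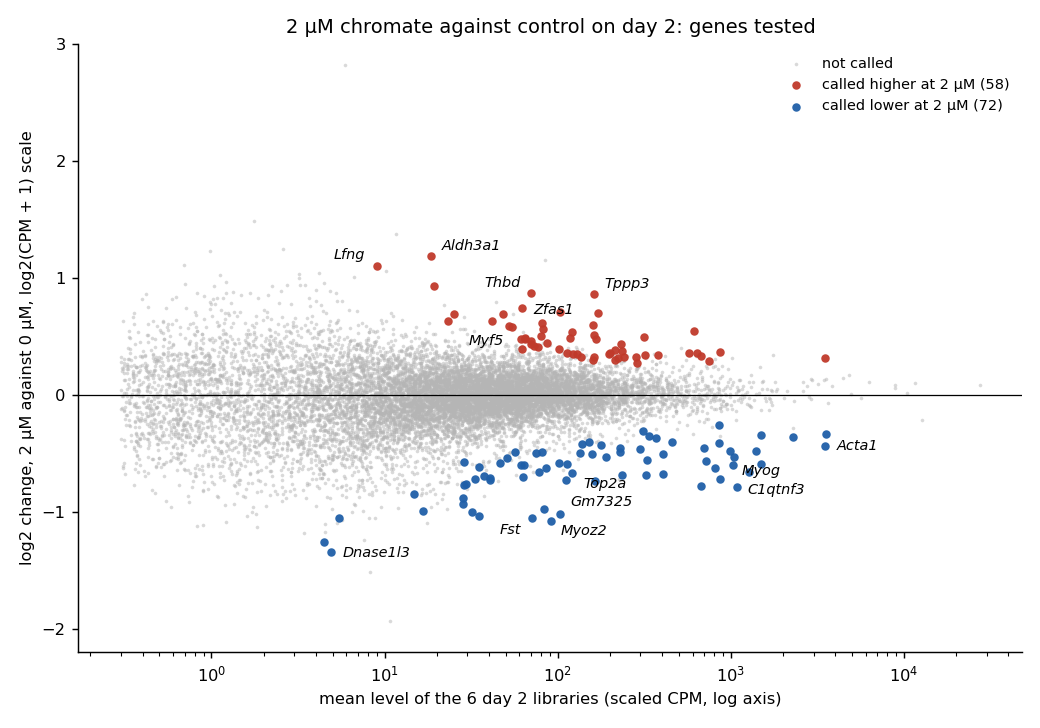
Log2 change at 2 µM against 0 µM on day 2 (vertical) by mean level of the 6 libraries in scaled CPM (horizontal, log axis), for the 12431 tested genes with a mean of at least 0.3. Red points are the 58 genes called higher and blue points the 72 called lower. Called changes run from −1.34 (Dnase1l3) to 1.19 (Aldh3a1), and smaller changes are called only at higher levels.

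Among the myogenic regulators, Myog and Mef2c fell and Myf5 rose. Myog encodes myogenin, the factor of the MyoD family that starts terminal differentiation. It stood at 1253, 1189.9 and 1245 scaled CPM in the control libraries and 821, 854 and 879.7 at 2 µM. All 3 treated libraries lay below all 3 controls, and Myog fell by 0.53 (SE 0.10, adjusted p = 0.0032), a level lower by 30.8%. In these bulk libraries, fewer differentiating cells and less RNA per cell cannot be told apart. Mef2c, a MADS-box partner of these factors, was at 99.3, 115 and 99.5 scaled CPM in the control libraries and 70.3, 66.2 and 65.7 at 2 µM. Its treated libraries also lay below every control, and it fell by 0.62 (SE 0.14, adjusted p = 0.013). Myf5, a determination factor of proliferating myoblasts, was at 40.1, 46.5 and 43.0 scaled CPM in the control libraries and 66.9, 70.2 and 58.3 at 2 µM. Here the treated libraries were the high ones, without overlap, and Myf5 rose by 0.58 (SE 0.12, adjusted p = 0.006).

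Myod1, the determination factor that stays on through differentiation, was at 163, 172 and 199 in control and 161, 172 and 198 at 2 µM. The groups overlapped, and the log2 change was −0.01 (95% interval −0.21 to 0.19, adjusted p = 0.99). Myf6 was near the detection limit, at 0.570 and 0.888 scaled CPM (0.29, adjusted p = 0.86). Of 11 regulators tested, 1 was called higher and 2 lower, with a median of −0.01 beside −0.01 over all genes. Leaving out 1 library ended the calls of Mef2c (control 2, 2 µM 2 or 3) and Myf5 (control 1, 2 µM 2), with adjusted p up to 0.12. In such brackets the numbers are those of the replicates left out.

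Among the fusion and adhesion genes, Gm7325, Cav3 and Ncam1 fell and Tmem8c did not pass. Gm7325 (myomixer), a small membrane protein that completes fusion of myoblasts, was at 128, 130.3 and 154 scaled CPM in the control libraries and 64.6, 63.6 and 73.9 at 2 µM. Each treated library had about the same low level, under every control, and Gm7325 fell by 1.02 (SE 0.18, adjusted p = 0.001), 2.04-fold lower. Tmem8c (myomaker), the membrane protein that starts fusion, was at 727, 755 and 786 in control and 602, 637 and 699 at 2 µM. Its groups did not overlap either, but the change of −0.23 did not pass (adjusted p = 0.46).  Cav3, the muscle caveolin, was at 48.6, 44.0 and 49.7 in control and 21.4, 22.6 and 23.8 at 2 µM and fell by 1.04 (SE 0.27, adjusted p = 0.048), with no overlap. The adhesion molecule Ncam1 fell by 0.47 (SE 0.11, adjusted p = 0.019). These 3 were the ones called of 13 tested, with a median of −0.17. Leaving out 1 library ended the calls of Cav3 (any of the 6) and Ncam1 (control 1, 2 or 3, 2 µM 1 or 2), with adjusted p up to 0.19.

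Sarcomere genes fell in both lists. All 11 embryonic and slow isoforms tested were below control (median −0.48), and 6 of them were called: the slow and cardiac troponins Tnni1, Tnnt2 and Tnnc1, cardiac actin Actc1, embryonic myosin heavy chain Myh3 and the atrial and embryonic light chain Myl4. Myh3, which newly formed myotubes make first, was at 1075, 1174 and 996 scaled CPM in the control libraries and 612, 683 and 675 at 2 µM. The highest treated library was below the lowest control, and Myh3 fell by 0.72 (SE 0.15, adjusted p = 0.0083). Myl4, at 844, 821 and 891 in control and 465, 497 and 526 at 2 µM, fell by 0.78 (SE 0.15, adjusted p = 0.0035). Tnni1, at 1506, 1590.4 and 1571 in control and 973, 1053 and 937 at 2 µM, fell by 0.66 (SE 0.10, adjusted p = 0.00029). Both pairs of groups were separate. Actc1, the actin of early myotubes, fell by 0.59 (SE 0.12, adjusted p = 0.0081). Without 1 library the calls of Tnnt2 (control 1, 2 or 3, 2 µM 1 or 2), Tnnc1 (any of the 6), Myh3 (control 2, 2 µM 1) and Actc1 (control 2) were lost, with adjusted p up to 0.22. Myl4 did not pass without the mean-variance trend (adjusted p = 0.056).

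Of 34 fast and shared sarcomere genes 9 were called, all lower, with a median of −0.34. They were Myoz2, Klhl41, the fast troponins Tnnt3, Tnnc2 and Tnni2, the myosin-binding gene Mybph, the light chain Mylpf, the tropomyosin Tpm2 and skeletal actin Acta1. Myoz2, a Z-disc protein that tethers calcineurin, was at 115, 132 and 126 scaled CPM in the control libraries and 54.8, 58.0 and 62.7 at 2 µM. Treated levels were close to each other and far under every control, and Myoz2 fell by 1.08 (SE 0.15, adjusted p = 5e-05). Klhl41, which stabilises nebulin and the thin filament, was at 488, 528 and 470.4 in control and 310.0, 319 and 299.9 at 2 µM and fell by 0.68 (SE 0.10, adjusted p = 9.4e-05). Tnnt3, at 1003, 960.2 and 998 in control and 603, 617 and 699 at 2 µM, fell by 0.63 (SE 0.10, adjusted p = 0.00042). Neither gene had overlapping groups. The fast calcium sensor Tnnc2 fell by 0.56 (SE 0.11, adjusted p = 0.006), but did not pass with all 30 libraries, with a pseudocount of 0.25 or without the mean-variance trend (adjusted p up to 0.097).

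Acta1, the skeletal alpha actin, was at 3790.4, 3900.2 and 4108 scaled CPM in the control libraries and 3162, 3066 and 3148 at 2 µM, without overlap, and fell by 0.33 (SE 0.08, adjusted p = 0.027). Reads of near-identical actins (Acta1, Actc1, Acta2) may have been shared out by the counting, whose method is not given in the sources used here. Desmin (Des) was at 0.03 (adjusted p = 0.96). Myh4, the fast IIb heavy chain, had the highest value of the list and did not pass (0.80, adjusted p = 0.23; named after its values were seen). Leaving out 1 library ended the calls of Tnni2 (any of the 6), Mybph (control 1, 2 or 3, 2 µM 1 or 2), Mylpf (control 1, 2 or 3, 2 µM 2 or 3), Tpm2 (control 1, 2 or 3, 2 µM 1 or 2) and Acta1 (any of the 6), with adjusted p up to 0.22.

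The promoters of Klhl41 and Acta1 are printed because each holds CAGCTG, the E-box letters bound by the MyoD family, and Top2a is printed as a division gene whose window holds none. The sequences are the 250 bases before the RefSeq start (GRCm38.p6), 5′ to 3′ on the gene's strand, with motif matches in capitals.
Klhl41, chr2:69669870-69670119, plus strand: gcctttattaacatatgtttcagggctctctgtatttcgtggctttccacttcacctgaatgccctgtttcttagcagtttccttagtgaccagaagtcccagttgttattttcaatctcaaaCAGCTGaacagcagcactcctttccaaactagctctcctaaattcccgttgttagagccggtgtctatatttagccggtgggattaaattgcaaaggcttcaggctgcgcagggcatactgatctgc
Acta1, chr8:123894776-123895025, minus strand: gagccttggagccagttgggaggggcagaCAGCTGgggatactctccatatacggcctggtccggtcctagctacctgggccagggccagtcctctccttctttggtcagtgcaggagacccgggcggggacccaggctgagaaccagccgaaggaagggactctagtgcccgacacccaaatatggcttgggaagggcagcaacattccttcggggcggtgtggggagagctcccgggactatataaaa
Top2a, chr11:99024190-99024439, minus strand: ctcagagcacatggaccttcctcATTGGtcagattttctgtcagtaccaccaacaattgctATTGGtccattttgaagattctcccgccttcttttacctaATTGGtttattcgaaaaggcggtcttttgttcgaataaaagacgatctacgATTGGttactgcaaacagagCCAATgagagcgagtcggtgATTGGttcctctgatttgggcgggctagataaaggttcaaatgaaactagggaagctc
In Klhl41 the E-box letters begin 127 bases before the start, and in Acta1 221 bases before it. In Top2a the capitals mark 6 matches to CCAAT or its reverse complement ATTGG, the letters of the NF-Y box. The letters CAGCTG, the same on both strands, were in 14 of the 48 called falls with a promoter in the table (29.2%), in 7 of 43 called rises (16.3%) and in 14.7% of the 9675 tested genes with one. CCAAT on either strand was in 43.8% of falls, 44.2% of rises and 40.9% of tested genes. The letters TGACNNNGC of the antioxidant response element were in 9 of 43 rises (20.9%), 3 of 48 falls (6.25%) and 13.9% of tested genes. Of the NRF2 targets called higher, Ephx1, Gstm1, Sqstm1 and Tkt lacked these letters, and Aldh3a1 had no promoter entry. TGCACNC or TGCGCNC, core letters of metal response elements, were in 39.5% of rises, 27.1% of falls and 34.2% of tested genes. The letters TGACGT were in 0 of 43 rises, 6.25% of falls and 11.7% of tested genes, and TTGCATC in 2.33%, 2.08% and 2.16%. These counts are a description with no test. A match is not a binding site, and the motifs can overlap each other.

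Calcium, synapse and energy genes of muscle each had 1 called member, all lower. Casq2, the calsequestrin of slow and cardiac muscle, was at 1194, 1332 and 1208 scaled CPM in the control libraries and 799, 829 and 825 at 2 µM, with separate groups, and fell by 0.60 (SE 0.11, adjusted p = 0.0019). It was the 1 of 17 calcium handling genes called (median −0.28, 16 of 17 below 0). Chrnd, the delta subunit of the acetylcholine receptor, was at 270.4, 268 and 251 in control and 189, 189 and 199 at 2 µM. Its 3 treated libraries lay under the controls, and it fell by 0.45 (SE 0.09, adjusted p = 0.0057), the 1 called of 12 neuromuscular junction genes (median −0.17). Eno3, the muscle enolase, was at 831, 781 and 816 in control and 581, 598 and 594 at 2 µM and fell by 0.45 (SE 0.08, adjusted p = 0.0014), the 1 called of 14 energy supply genes (median −0.23). Creatine kinase Ckm was at 344, 392 and 412 in control and 295, 327 and 406 at 2 µM, with overlapping groups (−0.17, adjusted p = 0.75). Casq2, Chrnd and Eno3 kept their calls in all 20 other settings.

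**Figure D2:**
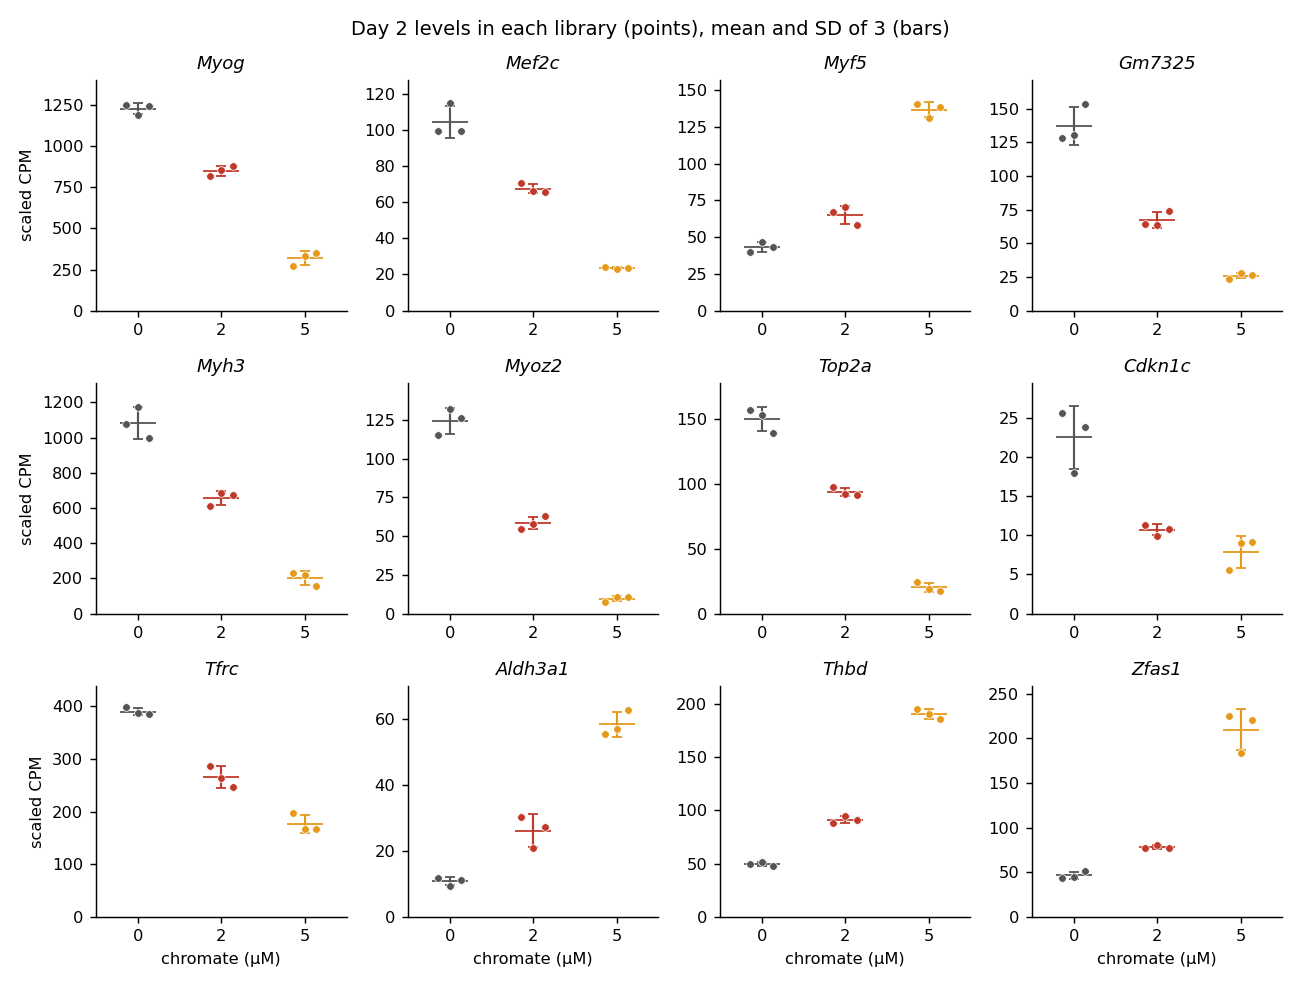
Levels of 12 genes on day 2 in scaled CPM (vertical, from 0) at 0, 2 and 5 µM chromate (horizontal). Points are libraries, and bars are the mean and SD of 3. In each panel the 2 µM libraries are separate from the control libraries, and their mean lies between the means at 0 and 5 µM. The 12 genes were picked from those called at 2 µM, so their separation follows from the choice. Called genes without this order of doses, such as Lfng and Il33, are not drawn.

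Division genes were lower as a whole, with few called singly in the main fit. All 30 mitosis genes tested were below control, with a median of −0.61 and 4 called (13.3%, beside 1.01% of all genes). Of these 30, 23 had an unadjusted p below 0.05 in limma, and 7 were called in edgeR and 12 in DESeq2. With only the 6 libraries of the comparison, where 623 genes were called in all, 22 of the 30 were called lower. All 33 G1/S and replication genes were below control, with a median of −0.38 and 2 called (6.06%). Of these 33, 15 had an unadjusted p below 0.05 in limma, and 2 were called in edgeR and 8 in DESeq2. Top2a, the topoisomerase that untangles chromosomes, was at 157, 153 and 139 scaled CPM in the control libraries and 97.2, 92.0 and 91.1 at 2 µM. Treated and control libraries were well apart, and Top2a fell by 0.67 (SE 0.13, adjusted p = 0.0038). Ccna2 (cyclin A2), at 77.5, 84.0 and 72.0 in control and 53.4, 49.2 and 40.7 at 2 µM, fell by 0.70 (SE 0.14, adjusted p = 0.0059). Its partner kinase Cdk1 fell by 0.60 (SE 0.15, adjusted p = 0.031), and the spindle protein Nusap1 fell by 0.72 (SE 0.19, adjusted p = 0.0498).

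Of the replicative helicase subunits, Mcm3 was at 52.0, 48.1 and 51.5 in control and 27.6, 30.3 and 32.9 at 2 µM and fell by 0.72 (SE 0.14, adjusted p = 0.0055), while Mcm6 fell by 0.49 (SE 0.13, adjusted p = 0.0498). Mki67, at 6.08, 11.5 and 9.70 in control and 5.88, 7.54 and 6.23 at 2 µM, did not pass (−0.38, adjusted p = 0.81). The omission of 1 library ended the calls of Ccna2 (control 2, 2 µM 3), Cdk1 (control 1, 2 or 3, 2 µM 1 or 3), Nusap1 (any of the 6) and Mcm6 (control 1, 2 or 3, 2 µM 2 or 3), with adjusted p up to 0.39. Top2a and Mcm3 were also lost with all 30 libraries in the fit (adjusted p = 0.16 and 0.20). In each single treated library the median over the mitosis genes was below the control mean, between −0.54 and −0.68. Of 32 DNA repair genes limma and edgeR called 0 and DESeq2 1 (4 at an unadjusted p below 0.05 in limma), with a median of −0.16.

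Cdkn1c (p57), a cell-cycle inhibitor that rises when myoblasts differentiate, moved with the falls. It was at 25.6, 18.0 and 23.8 in control and 11.4, 9.93 and 10.8 at 2 µM, without overlap, and fell by 0.99 (SE 0.24, adjusted p = 0.027), the 1 called of 10 genes for CDK inhibitors, D cyclins and the Rb family (median −0.10). Cdkn1a (p21), the main inhibitor of differentiating myoblasts and a p53 target, was at 1746, 1787 and 1879 in control and 1635, 1835 and 2097 at 2 µM, with overlapping groups (0.03, adjusted p = 0.95). Ccnd1 (cyclin D1) was at 0.03 (adjusted p = 0.97). Among the largest falls were other division genes outside the lists. They were 2810417H13Rik, a PCNA-binding protein, from 42.8 to 21.2 scaled CPM (adjusted p = 0.019), the histone chaperone Asf1b (−0.93, adjusted p = 0.035), Cdca3 (−0.85, adjusted p = 0.029) and Troap (−1.05, adjusted p = 0.03). Without 1 library the calls of Cdkn1c (control 1 or 3, 2 µM 1, 2 or 3), 2810417H13Rik (control 1 or 2, 2 µM 1 or 3), Asf1b (any of the 6), Cdca3 (any of the 6) and Troap (any of the 6) were lost, with adjusted p up to 0.2.

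Of 28 targets of NRF2, the factor that answers oxidants and electrophiles, 5 were called, all higher (17.9%, median 0.15). Aldh3a1, an aldehyde dehydrogenase, had the largest rise among called genes. It was at 11.9, 9.42 and 11.1 scaled CPM in the control libraries and 30.4, 20.8 and 27.3 at 2 µM, without overlap, and rose by 1.19 (SE 0.15, adjusted p = 2e-05), 2.42-fold higher. Ephx1, the microsomal epoxide hydrolase, was at 99.5, 98.4 and 96.4 scaled CPM in the control libraries and 151, 139 and 139 at 2 µM. All treated libraries stood above all controls, and it rose by 0.54 (SE 0.08, adjusted p = 0.00029). The glutathione transferase Gstm1, at 48.7, 52.7 and 61.0 in control and 81.7, 70.5 and 75.4 at 2 µM, rose by 0.48 (SE 0.10, adjusted p = 0.011), and its reads may be shared with other Gstm genes. Tkt, transketolase of the pentose phosphate pathway, rose by 0.63 (SE 0.16, adjusted p = 0.036). The autophagy receptor Sqstm1 rose by 0.36 (SE 0.08, adjusted p = 0.012).

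Other NRF2 targets that are often used as reporters did not pass. Nqo1 was at 7.39, 10.3 and 9.74 in control and 9.73, 10.9 and 9.36 at 2 µM (0.13, adjusted p = 0.92) and Hmox1, heme oxygenase, at 0.07 (adjusted p = 0.93). Their groups overlapped. Ftl1, ferritin light chain, was higher in each treated library, 876, 833 and 954 in control and 1059, 999.8 and 1043 at 2 µM, but did not pass (0.22, adjusted p = 0.39). The calls of Tkt (control 1, 2 or 3, 2 µM 2 or 3), Gstm1 (control 1 or 2, 2 µM 1 or 3) and Sqstm1 (control 1 or 2, 2 µM 2 or 3) were lost without 1 library (adjusted p up to 0.28). Aldh3a1 and Ephx1 kept theirs in all 20 other settings.

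Few metal and p53 genes moved. Mt1, a metallothionein, was at 115, 103 and 141 in control and 119, 109.9 and 149.6 at 2 µM (0.08, adjusted p = 0.92), and Mt2 was at 83.9, 86.7 and 99.5 in control and 92.3, 80.5 and 84.3 at 2 µM (−0.07, adjusted p = 0.93). Both had overlapping groups. Of 9 metallothioneins, zinc and sulfate transporters 0 were called in limma, edgeR and DESeq2, with 1 at an unadjusted p below 0.05 in limma (median −0.07). Of 12 iron and heme genes 1 was called, the transferrin receptor Tfrc, which brings iron into the cell. Tfrc was at 398, 388 and 385 scaled CPM in the control libraries and 287, 264 and 246 at 2 µM. Every treated library was under every control, and it fell by 0.56 (SE 0.08, adjusted p = 0.00012), a call held in all 20 other settings (list median 0.06). Of 30 p53 targets 0 were called in limma, edgeR and DESeq2, with 1 at an unadjusted p below 0.05 (median 0.08). The p53 inhibitor Mdm2 was at 90.0, 86.6 and 82.6 in control and 91.0, 87.3 and 83.5 at 2 µM (95% interval −0.18 to 0.21, adjusted p = 0.99).

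Among stress lists, 2 of 32 ATF4-linked genes for amino acids and one-carbon units were called lower (6.25%, median −0.13). They were the mitochondrial folate enzymes Aldh1l2, at 36.2, 38.3 and 36.2 in control and 19.2, 20.3 and 19.2 at 2 µM with no overlap, which fell by 0.88 (SE 0.21, adjusted p = 0.026), and Shmt2, which fell by 0.49 (SE 0.11, adjusted p = 0.015). Asns, asparagine synthetase, did not pass although its groups were separate (−0.40, adjusted p = 0.056), but was called lower in 7 of the 20 other settings. The stress factor Ddit3 (−0.31, adjusted p = 0.76) and the endoplasmic reticulum chaperone Hspa5 (0.05, adjusted p = 0.91) did not pass. By limma, edgeR and DESeq2, 0 genes were called among 18 endoplasmic reticulum chaperones (median −0.02, 1 at an unadjusted p below 0.05), 15 heat shock genes (0.10, 2 unadjusted) and 15 cytokine and interferon genes (0.08, 0 unadjusted). The calls of Aldh1l2 (any of the 6) and Shmt2 (control 1, 2 or 3, 2 µM 2 or 3) were lost without 1 library (adjusted p up to 0.12).

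Matrix genes had 3 called falls among 30 (10%, median −0.06). They were the collagens Col6a1 (−0.50, adjusted p = 0.0498) and Col5a2 (−0.40, adjusted p = 0.015) and the proteoglycan biglycan, Bgn (−0.26, adjusted p = 0.027). Col1a1 did not pass (−0.40, adjusted p = 0.31). The calls of Col6a1 (any of the 6), Col5a2 (control 1, 2 or 3, 2 µM 1 or 3) and Bgn (any of the 6) were lost without 1 library (adjusted p up to 0.27). Of 15 smooth muscle, SRF and YAP genes 2 fell. Tagln (transgelin) was at 108, 102 and 122 scaled CPM in the control libraries and 47.8, 60.0 and 60.0 at 2 µM. All treated libraries were under every control, and it fell by 0.97 (SE 0.15, adjusted p = 0.00016). Smooth muscle actin Acta2, which early myotubes also make, fell by 0.36 (SE 0.07, adjusted p = 0.0074), but did not pass after quantile normalization or without the mean-variance trend (adjusted p up to 0.083). The list median was −0.04.

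Among signalling lists, Fst (follistatin), which binds activin and myostatin, was at 94.6, 101 and 93.1 scaled CPM in the control libraries and 47.2, 46.4 and 44.1 at 2 µM. The groups were far apart, and Fst fell by 1.05 (SE 0.21, adjusted p = 0.0048), the 1 called of 14 TGF-beta, BMP and activin genes (median −0.14). With all 30 libraries in the fit Fst did not pass (adjusted p = 0.10). Lfng, a glycosyltransferase that modifies Notch receptors, was at 4.72, 3.61 and 8.07 in control and 15.0, 10.0 and 12.5 at 2 µM and rose by 1.10 (SE 0.25, adjusted p = 0.018), the 1 called of 12 Notch genes (0.06). Of 21 glycolysis and hypoxia genes 2 rose (0.07), hexokinase Hk1 (0.30, adjusted p = 0.0498) and Ndrg1 (0.36, adjusted p = 0.039). Klf6, the 1 called of 18 immediate early genes (0.17), rose by 0.32 (SE 0.07, adjusted p = 0.019). Sqstm1 was also the 1 called of 13 proteolysis and autophagy genes (0.08). The calls of Lfng (control 1 or 2, 2 µM 1 or 3), Klf6 (control 1 or 3, 2 µM 1 or 2), Hk1 (any of the 6) and Ndrg1 (control 1, 2 or 3, 2 µM 2 or 3) were lost without 1 library (adjusted p up to 0.31).

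Zfas1, a noncoding host transcript of small nucleolar RNAs, was at 43.7, 45.0 and 51.0 scaled CPM in the control libraries and 76.9, 80.9 and 77.3 at 2 µM. The treated libraries stood clear of the controls, and it rose by 0.74 (SE 0.14, adjusted p = 0.0025), held in all 20 other settings. It lies antisense to Znfx1 and the strand of the counting is not given in the sources used here, so reads of the 2 genes may not have been separated. It was the 1 called of 9 host transcripts (median 0.34). In limma 0 genes were called in the 5 remaining lists. Of 21 genes for sterol synthesis (median 0.04) 6 had an unadjusted p below 0.05, and edgeR and DESeq2 called 1 each. Of 13 genes of the insulin-like growth factor axis (−0.15) 4 did, with 1 called by edgeR and 0 by DESeq2. For 20 ribosome biogenesis genes (−0.04), 20 of the nuclear respiratory chain (−0.03) and 13 encoded in mitochondria (0.09) both tools called 0, with 2, 0 and 0 at an unadjusted p below 0.05. The 37 mitochondrial names took 7.83 ± 0.71% of reads in control and 8.27 ± 0.075% at 2 µM (SD, n = 3). The difference of 0.434 percentage points gave p = 0.4 in an exact two-sided permutation test, where 3 against 3 cannot go below 0.1. In each library the 13 protein-coding names alone took the same share, so the other mitochondrial names added none of it.

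**Figure D3:**
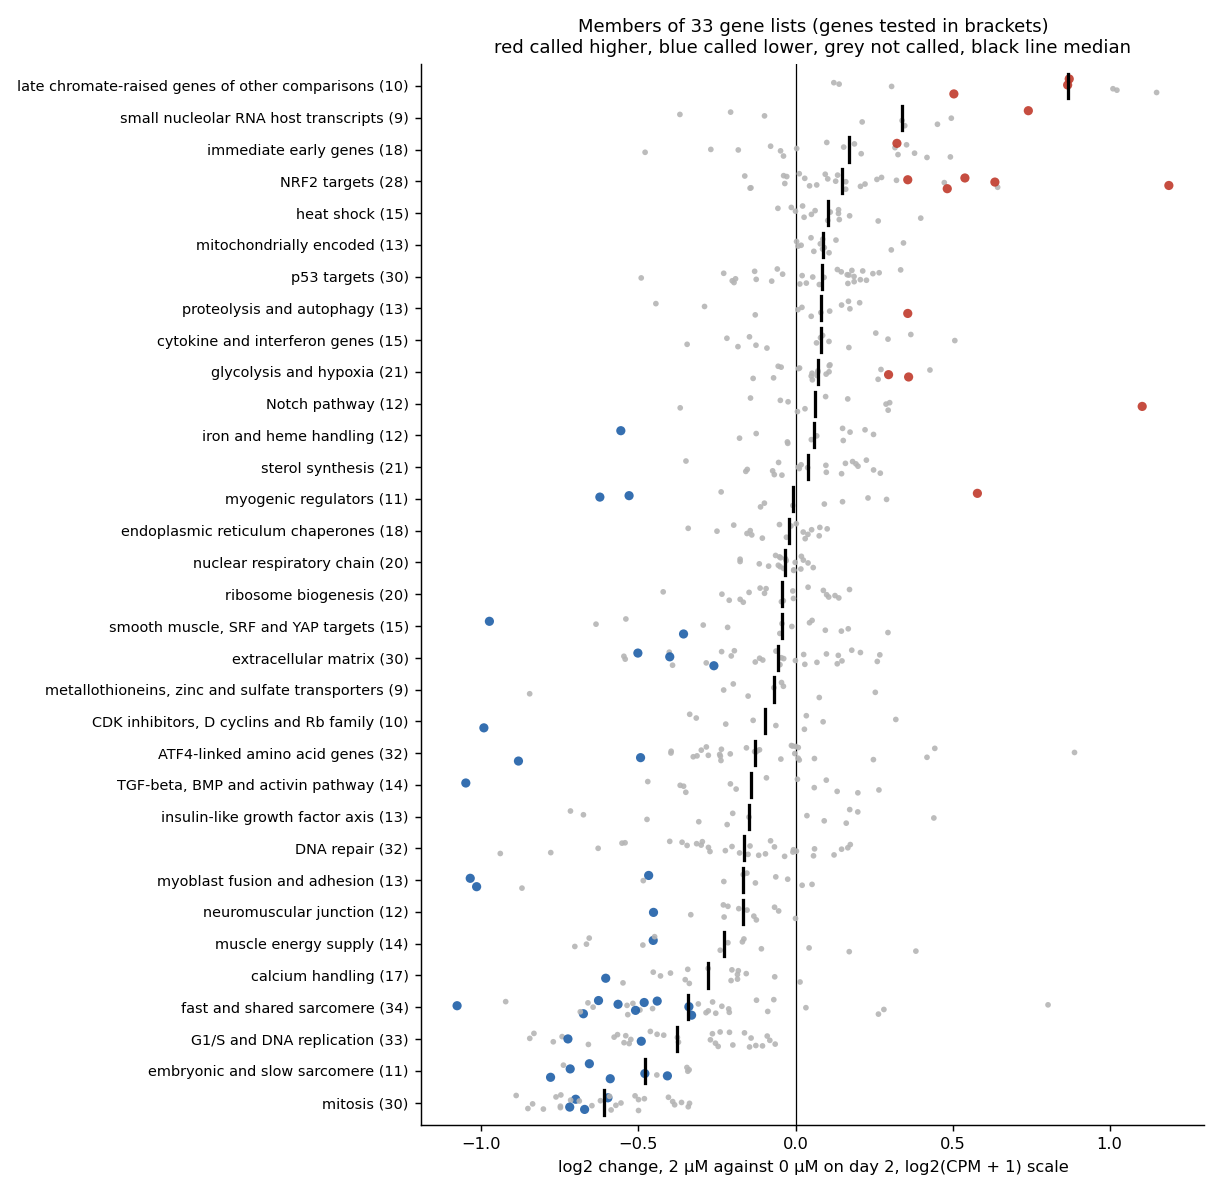
Log2 change at 2 µM against 0 µM on day 2 (horizontal) of each tested member of 33 gene lists (rows, genes tested in brackets), ordered by list median (black line). Red and blue points are called higher and lower, grey points are not called. The mitosis median is the lowest (−0.61) and all its 30 members lie below 0, while 5 NRF2 targets are called higher.

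Of 10 genes that earlier results of these data had shown to be raised by chromate in other comparisons, 3 were called higher here (median 0.87, 10 of 10 above 0). The choice of this list makes its direction no independent evidence. Thbd (thrombomodulin), a cell surface inhibitor of clotting, was at 49.1, 51.7 and 47.3 scaled CPM in the control libraries and 88.0, 94.3 and 91.2 at 2 µM. Groups were tight and far apart, and Thbd rose by 0.87 (SE 0.11, adjusted p = 1e-05). Tppp3, a tubulin-binding protein, was at 112, 105 and 124 scaled CPM in the control libraries and 203, 205 and 216 at 2 µM. The controls and treated libraries did not meet, and it rose by 0.87 (SE 0.12, adjusted p = 5e-05). The water channel Aqp1, at 67.9, 66.3 and 62.4 in control and 86.7, 94.2 and 99.4 at 2 µM, rose by 0.50 (SE 0.09, adjusted p = 0.0019). Clec3b (tetranectin), at 0.164, 0.183 and 0.836 in control and 2.86, 1.18 and 1.53 at 2 µM, was higher in each treated library without passing (1.02, adjusted p = 0.057). It was called higher in 5 of the 20 other settings.

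Other large rises were in genes outside the lists. Pde10a, a phosphodiesterase of cyclic nucleotides, rose by 0.93 (SE 0.21, adjusted p = 0.013), from 12.9 ± 2.59 to 25.4 ± 1.71 scaled CPM (SD, n = 3). Serpinb9b, of a serpin family with close paralogs, was at 87.4, 73.4 and 72.9 in control and 123, 129 and 130.1 at 2 µM and rose by 0.71 (SE 0.12, adjusted p = 0.00076). The brush border enzymes Mgam (0.70, adjusted p = 0.0016) and Anpep (0.69, adjusted p = 0.0037) rose, as did Dynap (0.69, adjusted p = 0.0081) and the immune checkpoint receptor Vsir (0.63, adjusted p = 0.03). Plat, tissue plasminogen activator, was at 60.7, 63.1 and 67.7 in control and 92.6, 99.4 and 103 at 2 µM, apart in every library, and rose by 0.62 (SE 0.11, adjusted p = 0.0014). Txnip, which binds thioredoxin, was at 127, 134 and 119 in control and 197, 188 and 193 at 2 µM and rose by 0.60 (SE 0.10, adjusted p = 0.00046). Inhbb, the beta B subunit of inhibin and activin, rose by 0.59 (SE 0.14, adjusted p = 0.024).

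Among the other large falls, C1qtnf3, a secreted relative of complement C1q, was the most abundant. It was at 1316, 1509.9 and 1269 scaled CPM in the control libraries and 802, 821 and 744 at 2 µM. The highest treated library was far under the lowest control, and it fell by 0.79 (SE 0.08, adjusted p = 1.5e-07). Dnase1l3, a secreted nuclease, had the largest fall among called genes, −1.34 (adjusted p = 0.014), at a low level of 7.40 ± 1.52 against 2.46 ± 1.33 scaled CPM (SD, n = 3). It did not pass with a pseudocount of 0.25, in DESeq2 or in edgeR (adjusted p = 0.16, 0.14 and 0.40). The transcript RP23-115O21.3 fell from 6.69 to 2.20 scaled CPM (−1.26, adjusted p = 0.014). Of the rises and falls just given, the calls of Pde10a (control 2 or 3, 2 µM 2 or 3), Anpep (2 µM 3), Dynap (control 1, 2 µM 2), Vsir (any of the 6), Inhbb (control 1 or 2, 2 µM 2 or 3), Dnase1l3 (control 2, 2 µM 3) and RP23-115O21.3 (control 2 or 3, 2 µM 2 or 3) were lost without 1 library (adjusted p up to 0.21).

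The direction seen on day 2 was kept on day 4. At 2 µM on day 4, against the day 4 controls and with no library in common, 1372 genes were called (10.7%, with 5.9% higher and 4.8% lower, or 12.8% of genes at 10 scaled CPM or more). Of the 130 genes called on day 2, 113 were called the same way on day 4 (55 higher, 58 lower), which is 86.9% of the day 2 genes and 8.24% of the day 4 genes. None was called the opposite way, and all 130 had the same sign. Without any 1 of the 6 day 2 libraries, when 53 to 87 genes were called on day 2, the shared count was 49 to 79. The day 2 rises had a median of 0.44 on day 2 and 0.73 on day 4, and the falls −0.60 and −0.59. The fits of both days share the spread of a gene.

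The difference of the effects was tested directly. The 2 µM effect differed between day 2 and day 4 in 64 genes (0.499%), with 44 changed upward and 20 downward. Without control replicate 1 or 3 or 2 µM replicate 2 the count was 41, 42 or 42, and with all 30 libraries 34. Among the 130 genes of day 2 it differed for 18, of which 15 were rises and 3 falls. Aqp1 went from 0.50 on day 2 to 1.90 on day 4 (adjusted p = 1.5e-08 for the difference). Its control level fell from 65.5 to 17.0 scaled CPM between these days, while at 2 µM it was 93.4 and 66.6. Thbd went from 0.87 to 2.27 (adjusted p = 3.4e-07) and Serpinb9b from 0.71 to 2.41 (adjusted p = 4.4e-08). Of the falls, Cdkn1c went from −0.99 to −2.66 (adjusted p = 0.0082) and Top2a from −0.67 to −1.45 (adjusted p = 0.04), which did not pass without any 1 of the 6 day 2 libraries (adjusted p up to 0.15).

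For the muscle genes named above no such difference was called. Myog was at −0.53 on day 2 and −0.58 on day 4 (difference −0.05, 95% interval −0.34 to 0.23). Myoz2 was at −1.08 and −1.03, Gm7325 at −1.02 and −1.14, and Myh3 at −0.72 and −0.79. Acta1 was at −0.33 on day 2 and did not pass on day 4 (−0.13, adjusted p = 0.32), and its difference between the days did not pass either (adjusted p = 0.7).

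The lists can be read against 10.7% of all genes called on day 4 and 0.905% on day 1. Of the 30 mitosis genes, 22 were called lower at 2 µM on day 4, against 4 on day 2 and 2 on day 1, with medians of −0.96, −0.61 and −0.48. The 33 G1/S genes had 18, 2 and 9 called lower on days 4, 2 and 1. Of the 28 NRF2 targets, 13 rose on day 4, against 5 on day 2 and 3 on day 1. The 11 embryonic and slow sarcomere genes had 5, 6 and 6 called lower on days 4, 2 and 1, and the 34 fast and shared ones 13, 9 and 9. Of 30 matrix genes, 15 were called lower on day 4 and 3 on day 2, with 0 on day 1. These counts are those of the main fit, and the lists' change between the days was not tested.

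**Figure D4:**
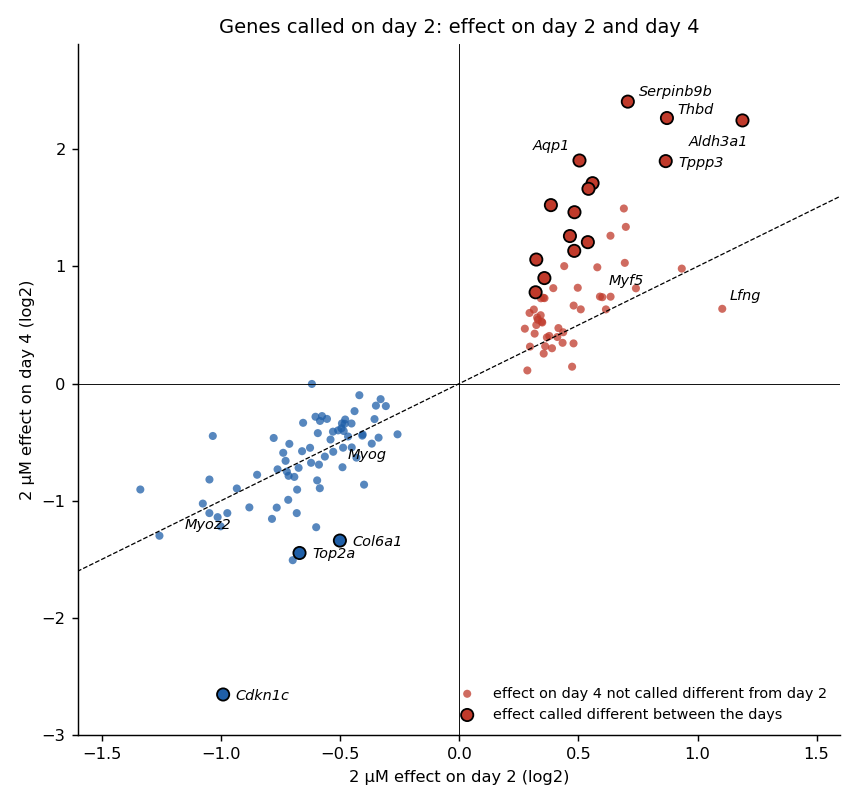
The 2 µM effect on day 2 (horizontal, log2) and on day 4 (vertical, log2) for the 130 genes called on day 2. Red genes were called higher and blue genes lower on day 2, the dashed line marks equal effects, and ringed points are the 18 genes whose effect was called different between the days. All 130 points have the same sign on both days, and 15 of the 18 ringed points are rises.

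On day 1, with 2 libraries left at 2 µM, 116 genes were called (0.905%). Of these, 33 were called the same way on day 2 (7 higher, 26 lower), which is 25.4% of the day 2 genes and 28.4% of the day 1 genes. Without any 1 of the 6 day 2 libraries, when 53 to 87 genes were called on day 2, this shared count was 12 to 21. Of the 130 genes of day 2, 118 had the same sign on day 1. In the test of a change of effect from day 1 to day 2, limma called 0 genes (630 at an unadjusted p below 0.05, smallest adjusted p of 0.17), edgeR 0 and DESeq2 25. Myog was already lower on day 1 (−0.62, adjusted p = 0.0019), as were Tnnt3 (−0.92, adjusted p = 1.3e-05), Myh3 (−1.20, adjusted p = 5.5e-05) and C1qtnf3 (−0.69, adjusted p = 1.7e-05). Ephx1 was already higher (0.72, adjusted p = 2.3e-05). Gm7325 (−0.23, adjusted p = 0.81), Tppp3 (0.03, adjusted p = 0.99) and Aqp1 (−0.02, adjusted p = 0.99) did not pass on day 1.

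The called genes were compared with the course of control cells from day 1 to day 4. Its libraries are in neither group of the day 2 comparison, but both comparisons share the spread of a gene. Of the 72 falls, 51 rose in control over that time, 10 fell and 11 were not called. Of the 58 rises, 55 fell in control, 0 rose and 3 were not called. Together 106 of the 130 moved opposite to the control course, where 49.6% of all genes tested were called, 24.9% rising and 24.6% falling (28.2% and 28.1% at 10 scaled CPM or more). Without any 1 of the 6 day 2 libraries, when 53 to 87 genes were called on day 2, the count was 44 to 64. Myl4 had the steepest control rise of the named falls, 7.50, and Aqp1 the steepest control fall of the named rises, −3.13.

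Of the 6 called mitosis and G1/S genes, Mcm3 fell by 0.42, Mcm6 by 0.81 and Cdk1 by 0.75 in control from day 1 to day 4. Top2a (−0.27, adjusted p = 0.082), Ccna2 (−0.24, adjusted p = 0.16) and Nusap1 (−0.27, adjusted p = 0.25) did not pass there. At 2 µM on day 2, Myog stood at 851 scaled CPM, between its control means of 419 on day 1 and 1229 on day 2. Myh3 stood at 657, between 104 and 1082. Thbd, at 91.2, was above its control means of 18.7, 56.4, 49.4 and 13.8 on days 0, 1, 2 and 4. Tppp3, at 208, was likewise above 67.3, 179, 114 and 118.

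**Figure D5:**
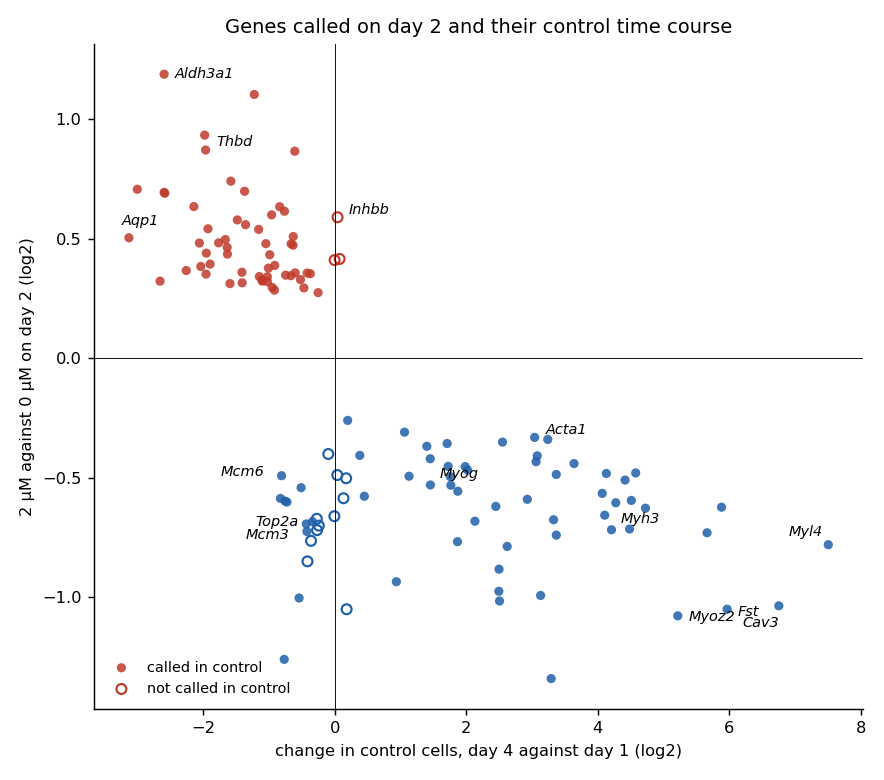
Log2 change at 2 µM against 0 µM on day 2 (vertical) by log2 change of control cells from day 1 to day 4 (horizontal) for the 130 called genes. Red is called higher and blue lower at 2 µM, and open circles were not called in control. Of 58 rises 55 lie among control falls, and of 72 falls 51 lie among control rises.

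The 5 µM libraries of day 2 share the control libraries with this comparison, so the values are only set side by side. Against control, Myog was at −0.53 at 2 µM and −1.95 at 5 µM, Myoz2 at −1.08 and −3.56, and Top2a at −0.67 and −2.82. Zfas1 was at 0.74 and 2.14, Aldh3a1 at 1.19 and 2.33, and Aqp1 at 0.50 and 2.02. Levels at 5 µM were 274, 334 and 352 scaled CPM for Myog and 55.5, 57.0 and 62.8 for Aldh3a1. Against the 2 µM libraries directly, 1867 genes were called at 5 µM (14.6%, with 5.37% higher and 9.19% lower), among them Myog (−1.42, adjusted p = 3.6e-13), Myoz2 (−2.48, adjusted p = 4.8e-15) and Aldh3a1 (1.15, adjusted p = 6.4e-07).

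For some called genes no difference between the doses was called. Lfng was at 12.5 scaled CPM at 2 µM and 11.9 at 5 µM (5 against 2 µM −0.06, adjusted p = 0.93), Pde10a at 25.4 and 24.9 (−0.02, adjusted p = 0.97), and Anpep at 60.0 and 59.1 (−0.01, adjusted p = 0.97). The 95% intervals of these differences ran from −0.57 to 0.45, −0.44 to 0.39 and −0.28 to 0.26. In 2 genes, named after their values were seen, the 5 µM libraries did not pass against control (Il33 −0.06, adjusted p = 0.79, Orc6 −0.13, adjusted p = 0.58). Il33, a cytokine kept in the nucleus, was at 68.5, 68.8 and 62.7 in control and 93.8, 101 and 101 at 2 µM (0.56, adjusted p = 0.036), and at 63.8 ± 5.09 (SD, n = 3) at 5 µM, lower than at 2 µM (−0.62, adjusted p = 0.0014). Orc6, a subunit of the origin recognition complex, was at 38.2, 33.6 and 31.2 in control and 22.8, 26.0 and 19.5 at 2 µM (−0.58, adjusted p = 0.041), and at 31.4 ± 4.50 at 5 µM, higher than at 2 µM (0.45, adjusted p = 0.033). The 5 against 2 µM tests of Il33 and Orc6 reuse the 2 µM libraries that gave their calls. Their p-values are favoured by that choice and are no independent evidence of a difference between the doses. The 2 µM calls of Il33 (any of the 6) and Orc6 (control 1, 2 or 3, 2 µM 1 or 3) were lost without 1 library (adjusted p up to 0.3).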

How the data were processed

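RNA-seq was run on 30 libraries of C2C12 cells, in 10 groups of 3, of which the comparison uses the 3 control and the 3 libraries at 2 µM of day 2. Per the labels' protocols, RNA came from TRIzol extraction and an Illumina TruSeq RNA kit was used. Which aligner, counter, genome build, strand setting and scaling were used is not given in the sources used here. The authors deposited 1 table of scaled signal values for 48709 gene names. Each column holds whole reads times 1 constant, found by dividing by the smallest step (100% of values whole within 0.02), so depth is known.

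Genes at 1 or more in at least 3 libraries (12820) were tested with limma 3.58.1 in R 4.3.3 on log2(value + 1), with a mean-variance trend, 10 group means and 28 libraries (18 residual degrees of freedom), and Benjamini-Hochberg adjustment over all genes tested (called below 0.05). A pair of day 1 libraries with foreign transcripts was left out. Alternatives were all 30 libraries, fewer groups, other filters, pseudocounts, scalings and variance settings, a replicate block, each of the 6 libraries left out, and edgeR 4.0.16 and DESeq2 1.42.0 on the recovered reads. The scripts were tested on simulated data.

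The members and lists were chosen with earlier results of these data known. Named genes were key genes set whatever their result, the 15 largest rises and 15 largest falls among called genes with a mean of at least 5 in the higher group and no overlap, up to 4 called members of each of 33 lists by size of change, and the 5 genes each way whose effect changed most between day 2 and day 4. Further called members of a list are named to complete its count. Promoters are from RefSeq (GRCm38.p6). They were matched by symbol for 43 of the 58 rises and 48 of the 72 falls. Figures were drawn with matplotlib 3.10.9 in Python 3.11.15.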

Additional observations from a re-analysis of the deposited data

Results flagged for a closer look

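The effect of 2 µM chromate, taken as the log2 change against the control of the same day, differed between day 2 and day 4 in 18 of the named genes by the test of the difference itself in limma, with adjusted p below 0.05. The differences below are day 4 minus day 2.

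In 11 genes the effect was higher on day 4. For the histamine-forming enzyme Hdc 2.23 (adjusted p = 0.0018) and for 1500015O10Rik 1.83 (adjusted p = 0.0499) the difference was the largest. For Hdc the day 2 effect was 0.12 and the day 4 effect 2.35. The others were Serpinb9b 1.70 (adjusted p = 4.4e-08), Clec3b 1.67 (adjusted p = 0.033), Aqp1 1.40 (adjusted p = 1.5e-08), Thbd 1.40 (adjusted p = 3.4e-07), Aldh3a1 1.06 (adjusted p = 0.0093), Tppp3 1.03 (adjusted p = 0.00049), Gstm1 0.98 (adjusted p = 0.00013) and Ephx1 0.67 (adjusted p = 0.0018). The cyclin D1 gene was Ccnd1 0.73 (adjusted p = 0.0075), where the day 2 effect was 0.03. Clec3b was at low levels on day 2, where the log2(CPM + 1) scale understates a change. Its day 2 effect ran from 0.41 to 2.23 over the 20 other settings. How much of its difference between the days comes from the scale was not tested.

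In 7 genes the effect was lower on day 4. Matrix genes were Fmod −2.17 (adjusted p = 0.015) for fibromodulin and the collagens Col5a3 −1.51 (adjusted p = 0.004), Col1a1 −1.43 (adjusted p = 0.00017) and Col6a1 −0.84 (adjusted p = 0.019). For Fmod the day 2 effect was −0.19 and the day 4 effect −2.36. Over the 16 other settings that gave a value for Fmod, its day 2 effect ran from −4.77 to −0.05. The remaining ones were the cannabinoid receptor gene Cnr1 −1.53 (adjusted p = 0.046), the cell-cycle inhibitor Cdkn1c −1.66 (adjusted p = 0.0082) and Top2a −0.78 (adjusted p = 0.04). Fmod, Hdc, 1500015O10Rik, Col5a3 and Cnr1 were named only for this difference. Without 1 of the 6 day 2 libraries the calls of 1500015O10Rik (any of the 6), Clec3b (control 3, 2 µM 2 or 3), Aldh3a1 (2 µM 2), Top2a (any of the 6), Col6a1 (control 1 or 2, 2 µM 2 or 3), Cnr1 (any of the 6) and Fmod (control 1) were lost (adjusted p up to 0.2).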

How the results depend on the processing

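With only the 6 libraries of the comparison 623 genes were called (236 higher, 387 lower, 25 at 2-fold), and 382 (169, 213, 21) with the 9 libraries of day 2. With all 30 libraries 66 were called (34, 32), without the mean-variance trend 63 (28, 35), in DESeq2 242 (108, 134, 17 at 2-fold) and 198, of which 127 lower and 3 at 2-fold, with a pseudocount of 4. A pseudocount of 0.25 gave 47 lower and 5 at 2-fold, and no level filter gave 46 lower. The share of calls that were higher was 44.6%, and it was 35.9% with a pseudocount of 4, 37.9% with the 6 libraries alone and 36.8% without 2 µM replicate 2. It was 51.5% with all 30 libraries, 52.6% (51 of 97) with no level filter, 52.5% (52 of 99) with a pseudocount of 0.25 and 52.1% (38 of 73) without control replicate 3, so which direction had more calls depends on the setting. Leaving out 1 library gave 53 to 87 genes (21 to 40 higher, 29 to 47 lower, 6 to 9 at 2-fold). List counts moved as well. With only the 6 libraries, 22 of 30 mitosis genes, 13 of 33 G1/S genes and 22 of 32 fast and shared sarcomere genes were called lower. Of 28 NRF2 targets 8 were then called higher.

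The count of genes whose effect changed from day 2 to day 4 was 34 with all 30 libraries, 38 without the trend, 117 in DESeq2 and 41 to 54 without 1 library. That from day 1 to day 2 was 8 with the comparison's groups alone, 4 with no filter, 1 after quantile normalization and 25 in DESeq2. Genes called alike on days 2 and 4 were 61 with all 30 libraries, 194 with the comparison's groups alone, 55 without the trend, 204 in DESeq2 and 49 to 79 without 1 library. Those of days 1 and 2 were 94 with the comparison's groups alone, 17 with no filter, 10 without the trend, 71 in DESeq2 and 12 to 21 without 1 library. Those opposite to the control course were 54 with all 30 libraries, 47 without the trend, 183 in DESeq2 and 44 to 64 without 1 library. The mitochondrial share difference was 0.046 to 0.742 points without 1 library. The cause of these shifts was not tested, beyond fewer samples where a library was left out. No called log2 change of a named gene changed sign. Those of Ccnd1, Cdkn1a, Hdc, Mdm2, Mt1, Mt2, Myod1 and Nqo1, none called, took both signs, from −0.13 to 0.46 in Hdc and within −0.12 to 0.21 in the others. Some named genes not called in the main fit were called in other settings. These were Asns in 7 of 20, Clec3b in 5, Col1a1 in 2 and Ftl1, Tmem8c and Cnr1 in 1 each.

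Same-numbered replicates of the 2 groups had correlations of deviation of 0.004, 0.017 and 0.09, against −0.0682 to 0.0555 for unlike numbers. The labels do not say that the numbers pair, and with 3 replicates per group these values cannot exclude it. With a replicate block 150 genes were called (66 higher, 84 lower). In edgeR 144 were called. For genes at 1 to 10 scaled CPM the median half-width of the 95% interval was 0.65.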

Other observations

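Among the 130 genes called on day 2, others than those described above were named after their values were seen, by what they encode. Several rises were genes of the cell surface and its cytoskeleton. Surface genes were also among the called falls, such as Cdh13, Erbb3, Ncam1, Ptprf and Ldlrad3. Of these, Erbb3, Ncam1, Ptprf and Ldlrad3 lost their calls without 1 library, while Cdh13 kept its call. The grouping was not tested. Ly6a (Sca-1), a membrane-anchored marker of stem and progenitor cells, was at 495, 504 and 485 in control and 708, 723 and 730.0 at 2 µM and rose by 0.54 (SE 0.09, adjusted p = 0.00042). Its family has close paralogs, and Ly6c1 (0.38, adjusted p = 0.046) was also called. The hyaluronan receptor Cd44 was at 750.4, 768 and 741 in control and 1069.9, 950.2 and 903 at 2 µM, with all treated libraries above all controls, and rose by 0.37 (SE 0.08, adjusted p = 0.02). The mucin-like Pdpn (0.38, adjusted p = 0.049), the thrombin receptor F2r (0.33, adjusted p = 0.0084), integrin Itga3 (0.46, adjusted p = 0.034) and the secreted guidance protein Sema3c (0.50, adjusted p = 0.0037) rose. So did the caveolar genes Ptrf (0.35, adjusted p = 0.014) and Ehd2 (0.34, adjusted p = 0.0081), the intermediate filament Vim (0.32, adjusted p = 0.015) and the galectin Lgals3 (0.33, adjusted p = 0.012). The muscle caveolin Cav3, described above, fell. Cited2, a coactivator partner of CBP and p300, rose by 0.51 (SE 0.09, adjusted p = 0.00076). Without 1 library the calls of Ly6c1 (any of the 6), Cd44 (control 1, 2 or 3, 2 µM 1 or 2), Pdpn (any of the 6), F2r (control 1 or 3, 2 µM 1), Itga3 (control 1, 2 or 3, 2 µM 2 or 3), Ptrf (control 2, 2 µM 2 or 3), Ehd2 (control 2, 2 µM 2 or 3), Vim (control 2, 2 µM 2 or 3) and Lgals3 (control 1 or 2, 2 µM 2 or 3) were lost (adjusted p up to 0.32).

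Further falls were genes of division and chromatin. Racgap1, needed for cytokinesis, was at 90.1, 104 and 94.6 in control and 55.5, 66.9 and 59.2 at 2 µM, with separate groups, and fell by 0.66 (SE 0.12, adjusted p = 0.0019). Its partner Ect2 (−0.69, adjusted p = 0.027), the checkpoint gene Mad2l1 (−0.76, adjusted p = 0.0092), the centromere chaperone Hjurp (−0.59, adjusted p = 0.024) and Atad2 (−0.54, adjusted p = 0.036) fell. So did the histone H2afz (−0.49, adjusted p = 0.006), the chromatin protein Hmgb2 (−0.60, adjusted p = 0.0084) and the tubulin-binding Stmn1 (−0.59, adjusted p = 0.0038), which was called in 19 of 20 other settings. Without 1 library the calls of Ect2 (control 1, 2 or 3, 2 µM 2 or 3), Mad2l1 (control 1, 2 µM 3), Hjurp (control 1 or 2, 2 µM 2 or 3), Atad2 (control 1, 2 or 3, 2 µM 2 or 3), H2afz (control 3) and Hmgb2 (control 1 or 2, 2 µM 3) were lost (adjusted p up to 0.3).

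Other falls were muscle genes outside the lists. Tmem182 (−0.74, adjusted p = 0.043), the membrane repair gene Trim72 (−0.73, adjusted p = 0.036), Hfe2, hemojuvelin (−0.43, adjusted p = 0.035), the adherens junction gene Pgm5 (−0.59, adjusted p = 0.041) and the sarcoplasmic reticulum genes Dhrs7c (−0.71, adjusted p = 0.049) and Tmem38a (−0.35, adjusted p = 0.039) fell. The muscle carbonic anhydrase Car3 moved the other way. It was at 47.0, 57.0 and 48.9 in control and 67.7, 74.1 and 70.9 at 2 µM and rose by 0.47 (SE 0.10, adjusted p = 0.012). The imprinted gene Mest was at 379, 421 and 389.7 in control and 253, 258 and 229 at 2 µM, without overlap, and fell by 0.68 (SE 0.11, adjusted p = 0.00029). The adhesion gene Cdh13 (−0.68, adjusted p = 0.00017) and the neuregulin receptor Erbb3 (−0.53, adjusted p = 0.049) fell. Without 1 library the calls of Tmem182 (any of the 6), Trim72 (control 1, 2 or 3, 2 µM 1 or 2), Hfe2 (any of the 6), Pgm5 (any of the 6), Dhrs7c (any of the 6), Tmem38a (any of the 6), Car3 (control 1 or 3, 2 µM 2 or 3) and Erbb3 (any of the 6) were lost (adjusted p up to 0.26).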
